A study of Mus musculus with 4 samples.

Results

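The genes described here are 7 members of the E2F family of transcription factors (E2f1, E2f2, E2f3, E2f4, E2f5, E2f6 and E2f8) and the 3 pocket proteins Rb1, Rbl1 and Rbl2. They were chosen by gene symbol, and every probe set assigned to 1 of these symbols alone was kept apart. This gave 11 probe sets for 10 genes, of 21789 probe sets with a single symbol and 19938 genes in all. E2f3 had 2 probe sets and each other gene had 1. RNA-binding protein immunoprecipitation was followed by Affymetrix whole-transcript arrays, on lysates of early erythroid progenitors from C57BL/6 mouse fetal liver at E14.5. The arrays fall into 2 groups, with 2 arrays from an RBP-specific antibody and 2 from control rabbit IgG. All 4 arrays used cells depleted of lineage-positive cells and of those with Sca-1, CD34, CD41 or myeloid Fc receptors, and then sorted for c-kit and low CD71. The labels do not name the RNA-binding protein (RBP). It is taken to be ZFP36L2, a zinc finger protein that binds AU-rich elements of mRNAs, on the basis of outside knowledge of this study, and the identity was not checked.

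E2F factors, other than the atypical ones, bind DNA together with a DP partner, and they control genes for DNA replication and the cell cycle. In quiescent or early G1 cells the pocket proteins hold E2F factors on their targets and silence them, and phosphorylation by cyclin-dependent kinases releases this hold. E2f1, E2f2 and E2f3 are classed as activators, E2f4 and E2f5 as repressors that act with pocket proteins, and E2f6 and E2f8 as repressors that do not need them. In mouse fetal liver, Rb1 and E2f4 are known from gene deletions to be needed for normal red cell formation. The comparison asked which of these mRNAs the RBP antibody recovered beyond control IgG. Values are log2 levels per probe set, and differences are RBP minus IgG on that scale.

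Levels on arrays of a group agreed closely, with Pearson's r across probe sets, which are not independent replicates, of 0.993 between the RBP arrays and 0.978 between the IgG arrays, against 0.949 to 0.956 between groups. Levels spread more widely with the RBP antibody, where the interquartile range was 3.63 and 3.70, than with IgG, where it was 2.77 on both arrays. Among erythroid progenitor markers, 9 of 10 probe sets lay above 5.36, the 95th percentile of chemosensory receptor probe sets, which is used here as the background level. Kit averaged 11.76 on RBP arrays and 11.07 on IgG arrays, and Gata1 averaged 9.97 on RBP arrays and 9.75 on IgG arrays. Alas2, at 5.27 in both groups, lay below the background level. Of the 10 erythroid probe sets, 4 were called higher and 0 lower with the RBP antibody, by the threshold given below. Over all probe sets 23.5% were higher and 6.64% lower, and above the background level 35.8% and 6.84%. Of 36 markers of other cells of fetal liver (hepatocytes, endothelium and stroma, lymphoid cells, megakaryocytes, macrophages, and granulocytes with mast cells), 26 lay above the background level, 2 were higher and 2 lower with the RBP antibody. Their mean level ranged over the 6 lists from 5.66 to 7.82 on RBP arrays and from 5.67 to 8.37 on IgG arrays. Single markers stood higher than these means, the highest being Mpo at 11.03 on RBP arrays and 10.96 on IgG arrays. The part of these other cells in the results below was not tested. Whether the 2 arrays of a group stem from different cell preparations is not stated in the labels, so p-values reflect array-to-array spread that may be technical, and the number of arrays limits the precision. In such bulk samples fewer cells of a type and less RNA per cell cannot be told apart.

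All 11 probe sets were above the background level and were higher on both RBP arrays than on either IgG array. The difference ran from 0.51 for E2f4 to 1.92 for 1 probe set of E2f3, with a median of 1.01, against a median of -0.026 over all probe sets tested and 0.39 over those above the background level. By limma, with p-values adjusted over 21789 probe sets (Benjamini-Hochberg) and a threshold of 0.05, 10 of the 11 were called higher, 0 were called lower, and E2f4 did not pass. By unadjusted p under 0.05 in limma, 11 were higher and 0 lower. The share of all probe sets at this unadjusted threshold was not counted, so these 11 have no background to be read against. At the adjusted threshold limma called 23.5% of all probe sets higher and 6.64% lower, and 35.8% higher and 6.84% lower among those above the background level. Both RBP arrays lay above both IgG arrays for 37.2% of all probe sets. At least 2-fold differences were seen for 6 of the 11, against 13.8% of all probe sets. The shares of 37.2% and 13.8% also cover probe sets below the background level, where no member lay. Neither share was counted at the members' levels. An exact two-sided permutation test of 2 arrays against 2 cannot give a p below 0.333, so the calls depend on limma's pooling of variance over probe sets. Without RBP array 1 the 11 differed by 0.42 to 1.76, with a median of 0.89 against -0.037 over all probe sets. Without RBP array 2 they differed by 0.45 to 2.07, with a median of 1.17 against -0.015. In both cases fewer of the 11, and fewer of all probe sets, were called higher.

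**Figure D1:**
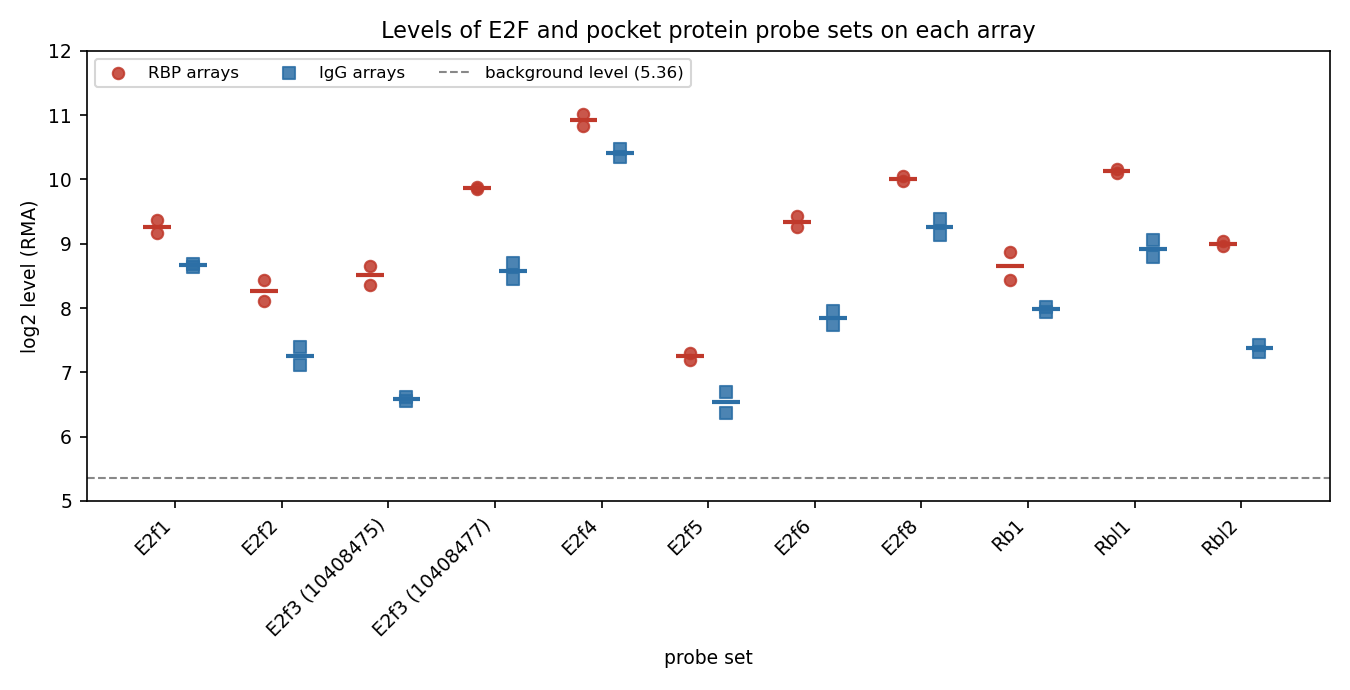
Log2 level of each E2F and pocket protein probe set (x axis) on the 2 RBP arrays (red circles) and the 2 IgG arrays (blue squares), with group means as bars and the background level of 5.36 as a dashed line. Both RBP points lie above both IgG points for all 11 probe sets, and levels of different probe sets are not comparable with each other.

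E2f3, an activator that drives entry into S phase, had the largest difference of the family. Its probe set 10408475 stood at 8.66 and 8.35 on the RBP arrays and at 6.56 and 6.62 on the IgG arrays. The groups were far apart compared with the gap within either of them. The difference was 1.92 ± 0.17 (SE; 3.78-fold; limma, adjusted p = 0.0057), and 99.4% of all probe sets had a smaller difference. The other probe set of the gene, 10408477, stood at 9.86 and 9.89 on the RBP arrays and at 8.45 and 8.70 on the IgG arrays, again without overlap. Its difference was 1.30 ± 0.16 (SE; 2.46-fold; limma, adjusted p = 0.00604). Both probe sets of E2f3 were thus called higher, by unequal amounts. Within each array, the level of 10408475 minus that of 10408477 was -1.20 and -1.53 on the RBP arrays and -1.89 and -2.07 on the IgG arrays. This gap changed by 0.62 between groups (exact two-sided permutation p = 0.333, the smallest that this design allows). The platform annotation pairs both probe sets with E2f3 transcripts and does not say which part of the transcript each one covers.

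E2f2, the activator known for high expression in erythroid cells, stood at 8.43 and 8.10 on the RBP arrays and at 7.40 and 7.11 on the IgG arrays. The arrays within each group differed by about as much in both groups, and the groups did not overlap. The difference was 1.01 ± 0.19 (SE; 2.02-fold; limma, adjusted p = 0.0144). E2f1, the founding member of the family and an activator also known for its role in apoptosis, stood at 9.37 and 9.16 on the RBP arrays and at 8.63 and 8.69 on the IgG arrays. This was the smallest difference among the activators, at 0.60 ± 0.15 (SE; 1.52-fold; limma, adjusted p = 0.0347). The call of E2f2 was lost without RBP array 1 (limma, adjusted p = 0.111) or RBP array 2 (0.0507). That of E2f1 was lost without RBP array 1 (limma, adjusted p = 0.29), RBP array 2 (0.138) or IgG array 1 (0.0523).

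E2f4 and E2f5, which act as repressors in complex with pocket proteins, had small differences. E2f4, the main E2F of quiescent cells, stood at 11.02 and 10.84 on the RBP arrays and at 10.35 and 10.48 on the IgG arrays. The groups did not overlap, but the difference of 0.51 ± 0.16 (SE; 1.43-fold, 95% interval 0.13 to 0.90) did not pass (limma, adjusted p = 0.0555). E2f4 passed in 5 of 15 alternative settings. Among these were centring on the chemosensory receptors, the replicate number as a block, and limma's trend and robust options (limma, adjusted p = 0.0105, 0.0419 and 0.0453). Without IgG array 2 its difference was 0.57. E2f5 stood at 7.20 and 7.30 on the RBP arrays and at 6.70 and 6.37 on the IgG arrays. Its IgG arrays differed more than its RBP arrays, and the groups did not overlap. The difference was 0.71 ± 0.17 (SE; 1.64-fold; limma, adjusted p = 0.0303), a call lost without RBP array 1 (0.15) or RBP array 2 (0.189).

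E2f6 and E2f8 repress without pocket proteins. E2f6 lacks the transactivation and pocket-binding domain and works within a variant Polycomb complex. Its probe set stood at 9.25 and 9.42 on the RBP arrays and at 7.96 and 7.74 on the IgG arrays, a gap between groups much wider than that within either group. The difference was 1.49 ± 0.16 (SE; 2.81-fold; limma, adjusted p = 0.00571). E2f8, an atypical E2F that binds DNA without a DP partner and is known to act in red cell formation together with Rb1 in mice, stood at 9.98 and 10.05 on the RBP arrays and at 9.39 and 9.14 on the IgG arrays. Its groups did not overlap, and its difference of 0.75 ± 0.16 (SE; 1.68-fold; limma, adjusted p = 0.0213) was close to the median of 0.70 for probe sets at its level. The call of E2f8 was lost without RBP array 1 (limma, adjusted p = 0.132) or RBP array 2 (0.151).

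The pocket proteins were all 3 called higher, by unequal amounts. Rbl2, which encodes p130 and prevails in quiescent cells, stood at 9.04 and 8.96 on the RBP arrays and at 7.43 and 7.32 on the IgG arrays. Replicates in both groups were close together. The difference was 1.63 ± 0.15 (SE; 3.09-fold; limma, adjusted p = 0.0057). Rbl1, which encodes p107 and is itself a target of E2F in cycling cells, stood at 10.11 and 10.17 on the RBP arrays and at 9.06 and 8.79 on the IgG arrays. Its groups were separated by more than the gap within either of them, with a difference of 1.21 ± 0.16 (SE; 2.32-fold; limma, adjusted p = 0.00676). Rb1, the retinoblastoma tumour suppressor, stood at 8.43 and 8.87 on the RBP arrays and at 7.94 and 8.01 on the IgG arrays. Its RBP arrays were the most unequal of any member, 0.44 apart. The difference of Rb1 was 0.67 ± 0.19 (SE; 1.59-fold; limma, adjusted p = 0.048), just inside the threshold. Leaving out RBP array 1 gave 0.89, leaving out RBP array 2 gave 0.45, and the call was lost whichever array was left out (limma, adjusted p from 0.0668 to 0.316).

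**Figure D2:**
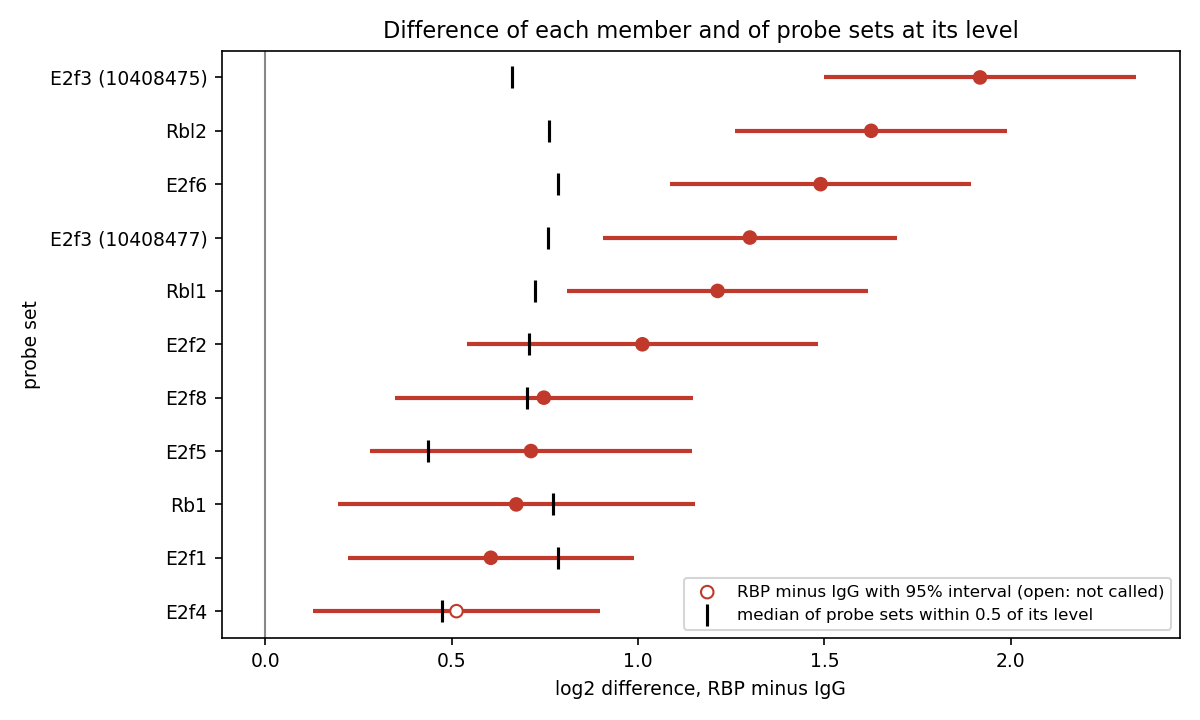
Log2 difference, RBP minus IgG, of each probe set with its 95% interval from limma (red; open circle not called), and the median difference of all probe sets within 0.5 of its mean level (black tick). E2f3, Rbl2, E2f6 and Rbl1 lie to the right of their ticks with intervals that leave the tick out, while E2f1 and Rb1 lie left of theirs and turned to -0.055 and -0.013 when the trend on level was removed.

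The members ranged from well above other probe sets of like level to below them, without a clear break. The lower 95% bounds of E2f3 probe set 10408475 (1.50) and Rbl2 (1.26) lay above the upper bounds of E2f1 (0.99), E2f4 (0.90), E2f5 (1.14), E2f8 (1.15) and Rb1 (1.15). These differences between members were not tested. Differences on these arrays went with level over all probe sets, so each member was also set against the probe sets within 0.5 of its mean level. Around E2f3 probe set 10408475 there were 2734 such probe sets, with a median difference of 0.66, and 46.8% of them were called higher. Around Rbl2 the median was 0.76 (53.7% called higher), around E2f6 0.79 (56.3%) and around Rbl1 0.72 (55.5%). E2f2 (1.01) and E2f5 (0.71) lay above the medians at their levels, 0.71 and 0.44, but their 95% intervals held these medians. E2f1 and Rb1 lay below the medians at their levels, 0.78 and 0.77. Over the levels of the 11 members, 35.3% to 57.7% of such probe sets were called higher.

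**Figure D3:**
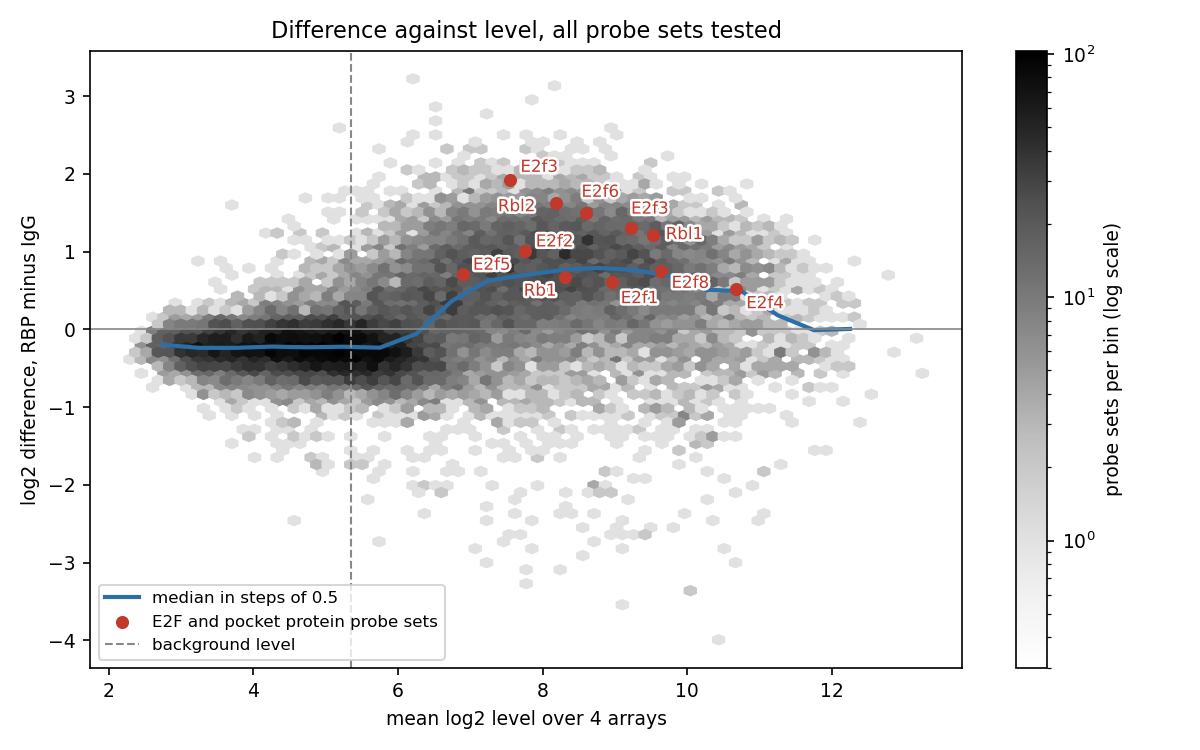
Log2 difference, RBP minus IgG, against the mean log2 level over 4 arrays for 21789 probe sets (grey bins, darker where more probe sets fall), with the median in steps of 0.5 of level (blue) and the 11 E2F and pocket protein probe sets (red). The members lie at levels of 6.89 to 10.67, where the median is above 0, and E2f1 and Rb1 fall just under it.

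With the loess trend of the difference on level subtracted, 4 of the 11 probe sets were called higher and 0 lower, against 7.05% and 5.84% of all probe sets. Those called were E2f3 probe set 10408475 (1.32; limma, adjusted p = 0.0185), E2f3 probe set 10408477 (0.68; 0.0484), E2f6 (0.80; 0.0353) and Rbl2 (0.95; 0.0218). Rbl1 came close (0.65; limma, adjusted p = 0.0563). E2f2 gave 0.38, E2f5 0.31, E2f8 0.20 and E2f4 0.18, and E2f1 (-0.055) and Rb1 (-0.013) turned sign, and none of these passed. Quantile normalization, which moved the median of all probe sets to 0.15, left 5 called, beside 11.4% of all probe sets higher, namely both E2f3 probe sets (1.69 and 0.80), E2f6 (0.99), Rbl1 (0.75) and Rbl2 (1.19). These 5 differed by 1.24 to 1.76 without RBP array 1 and by 1.18 to 2.07 without RBP array 2. Centring each array on the chemosensory receptors moved the median of all probe sets to 0.29, and all 11 were then called higher, at 0.83 to 2.23, as were 35.1% of all probe sets.

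**Figure D4:**
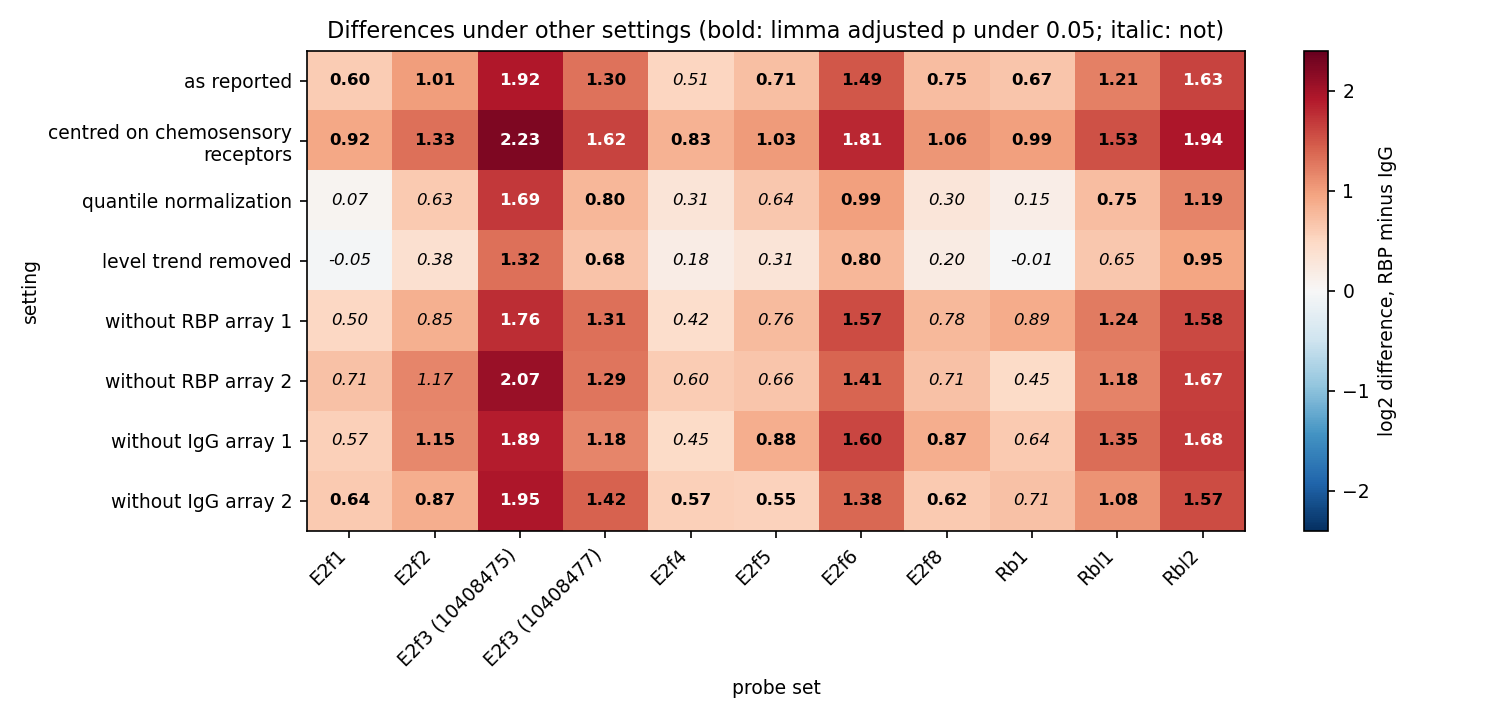
Log2 difference, RBP minus IgG, of each probe set (columns) as reported and under 7 other settings (rows), with colour for size and bold numbers where limma's adjusted p was under 0.05. Both E2f3 probe sets, E2f6 and Rbl2 are bold in every row shown, and E2f1 and Rb1 turn below 0 with the level trend removed.

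Several E2F genes and Rbl1 are themselves known as genes regulated by E2F, so promoters of the members were searched for the E2F consensus in its 4 forms TTTCCCGC, TTTCGCGC, TTTGCCGC and TTTGGCGC on both strands. The forms differ at fixed positions and cannot match the same bases on a strand. RefSeq windows of 250 bases before to 50 after a start site (GRCm38.p6) were at hand for 7 of the 10 genes, in 9 windows. A match was found in 3 of the 9 windows, 1 each of E2f2, E2f3 and Rbl1, against 2.26% of all 32851 windows. E2f2 and E2f3 each had a second window with no match. E2f3 holds a match on the reverse strand with its first base at position -11 from the start site, and Rbl1 one on the forward strand at -18. E2f2 holds one on the forward strand at position 40, after the start site. The 120 bases before the start are shown for E2f3 (chr13:29986064-29986183, minus strand) and Rbl1 (chr2:157204535-157204654, minus strand), with 30 bases for E2f2 (chr4:136172294-136172323, plus strand), and capitals mark the match.
E2f3: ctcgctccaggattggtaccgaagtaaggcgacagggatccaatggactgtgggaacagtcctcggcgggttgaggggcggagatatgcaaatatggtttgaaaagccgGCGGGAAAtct
Rbl1: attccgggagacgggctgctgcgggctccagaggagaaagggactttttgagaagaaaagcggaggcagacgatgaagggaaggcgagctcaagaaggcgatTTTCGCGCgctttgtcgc
E2f2: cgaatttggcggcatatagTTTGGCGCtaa
These are letters in a window and not measured sites, and the arrays report RNA in the immunoprecipitate rather than transcription. E2f3, E2f2 and Rbl1 had 4 probe sets, with differences of 1.92, 1.30, 1.01 and 1.21. The 4 genes with a window and no match were E2f1, E2f6, E2f8 and Rbl2, with differences of 0.60, 1.49, 0.75 and 1.63.

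The genes whose levels over the 4 arrays were nearest to those of E2f3 probe set 10408475, by Euclidean distance over 18522 probe sets of other protein-coding genes, were Cmtr2 (distance 0.28), an mRNA cap methyltransferase, Atf7ip (0.30), a chromatin regulator, and Tor4a (0.32), a torsin-family ATPase. Their differences were 1.98, 1.69 and 1.73. With 4 arrays this nearness describes a similar level and difference and no more.

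Genes that work with E2F and pocket proteins were described through 8 lists with 79 places. They held 90 measured probe sets for 74 genes, of which 45 were called higher and 0 lower by limma. That is 50% higher, against 23.5% of all probe sets and 47.1% of those within 0.5 of the level of each listed probe set, averaged over the 90. At an unadjusted p under 0.05 in limma 56 were higher and 4 lower, and the share of all probe sets was not counted there. The median difference was 0.66, against a mean of 0.58 for the medians at those levels. For each list below, the share called higher at its levels is given in the same way. With the level trend removed 12 were higher and 2 lower (a probe set each of Tfdp1 and Rbbp4), and with quantile normalization 17 and 1 (Tfdp1). Leaving out RBP array 1 or RBP array 2 left fewer of the 90 higher, and fewer of all probe sets. After centring on the chemosensory receptors 65 were higher and 0 lower.

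The DP partners, with which the typical E2F factors bind DNA, had differences of either sign, and 1 of 3 probe sets was higher (48.1% at these levels). Tfdp2 stood at 9.13 and 9.22 on the RBP arrays and at 8.01 and 8.16 on the IgG arrays, a difference of 1.09 ± 0.15 (SE; limma, adjusted p = 0.00698). Both probe sets of Tfdp1 did not pass, at -0.45 and -0.27. The call of Tfdp2 was lost without RBP array 1 (limma, adjusted p = 0.053), without RBP array 2 (0.0582), with quantile normalization (0.0677) and with the level trend removed (0.136). The MuvB core binds pocket proteins with E2F in quiescence and MYB or FOXM1 later in the cycle, and 5 of 9 probe sets of this list were higher (44.1% at these levels), with a median of 0.75. Lin9, a subunit of the core, differed by 1.40 ± 0.17 (SE), Mybl1 by 1.36 ± 0.25 and Foxm1 by 0.96 ± 0.16. The mean level of Mybl1 (4.61) was below the background level, so the size of its difference is uncertain. Fewer of this list were higher when RBP array 1 or RBP array 2 was left out, as was so over all probe sets. Foxm1 was not called without RBP array 1 (limma, adjusted p = 0.0928) or RBP array 2 (0.0597), nor was Mybl1 without RBP array 2 (0.0737). Foxm1 fell short of a call also with quantile normalization (0.43; limma, adjusted p = 0.142) and with the level trend removed (0.29; 0.286), and 2 of the list were higher in each of these settings.

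Among genes upstream of the pocket proteins, 4 of 8 probe sets of G1 cyclins and kinases were higher (43.9% at these levels), with a median of 0.68. Ccne1, cyclin E1, differed by 0.93 ± 0.17 (SE), Ccnd2 by 0.81 ± 0.15 and Ccnd3, the D cyclin prominent in red cell precursors, by 0.78 ± 0.14. With quantile normalization 2 of the 8 were called by limma, and with the level trend removed 0 were called. Without RBP array 1, Ccne1, Ccnd2 and Ccnd3 differed by 1.04, 0.75 and 0.75, and without RBP array 2 by 0.82, 0.87 and 0.81. None of them was called in these 2 fits. Of 7 probe sets of CDK inhibitors 1 was higher (21.8% at these levels), Cdkn2c, which encodes p18INK4c (0.81 ± 0.16; limma, adjusted p = 0.0167), and the list median was 0.39. Cdkn2c stood at 5.31 and 5.15 on the IgG arrays, below the background level, so the size of its difference is uncertain. Others had negative differences that did not pass, namely Cdkn2a (-0.60; limma, adjusted p = 0.0508), Cdkn1c (-0.48; 0.0759) and Cdkn2b (-0.32; 0.162). Without IgG array 2 more probe sets were called lower, both in this list and over all probe sets. Cdkn2c lost its call without RBP array 1 (limma, adjusted p = 0.153) or RBP array 2 (0.0806). In the list of E2F stability and degradation 1 of 6 was higher (54% at these levels), Ccnf, cyclin F, which targets proteins for degradation (1.14 ± 0.26; limma, adjusted p = 0.0249), with a median of 0.56. Ccnf was not called without RBP array 1 (limma, adjusted p = 0.104) or RBP array 2 (0.0942), nor with quantile normalization (0.61; 0.182) or the level trend removed (0.47; 0.288). The list had 0 higher with quantile normalization, with the level trend removed and with all rows of the table tested, and 5 after centring on the chemosensory receptors. Fewer were higher without RBP array 1 or RBP array 2 and more without IgG array 2, as over all probe sets.

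Corepressors and binding proteins of the pocket proteins had 11 of 15 probe sets higher (53.6% at these levels) and a median of 1.07. Rbbp6, a ubiquitin ligase that binds Rb1, gave differences of 1.97 ± 0.19 (SE), 1.36 ± 0.14 and 0.50 ± 0.30 at its 3 probe sets, of which the last did not pass (limma, adjusted p = 0.237). Sin3a, a corepressor scaffold, differed by 1.38 ± 0.19, and Arid4b, an Rb1-binding chromatin protein, by 1.37 ± 0.14. Sin3a lost its call without RBP array 1 (limma, adjusted p = 0.0521) and with the level trend removed (0.0679). With RBP array 1 or RBP array 2 left out, fewer of the list were higher, as was so over all probe sets. Quantile normalization left 6, and removing the level trend left 4. Among E2F6 partners 5 of 15 were higher (53.7% at these levels), with a median of 0.28, and 7 of the 15 were probe sets of Cbx3 at 0.16 to 0.21. L3mbtl2 differed by 1.50 ± 0.14 (SE), Mga by 1.17 ± 0.18 and Rybp by 1.04 ± 0.22 at the higher of its 2 probe sets, and all of them belong to the complex in which E2F6 works. With either RBP array left out, fewer of the 15 and fewer of all probe sets were higher. L3mbtl2 then differed by 1.54 without RBP array 1 and by 1.46 without RBP array 2. Leaving out RBP array 1 or 2 gave an adjusted p in limma of 0.0588 or 0.0579 for Mga and of 0.0852 or 0.108 for Rybp. Quantile normalization and removal of the level trend left 1 of the 15 higher each. Mga then gave 0.73 (limma, adjusted p = 0.0515) and 0.64 (0.0741), and Rybp 0.51 (0.193) and 0.36 (0.336).

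E2F target genes of S phase entry had 17 of 27 probe sets higher (63%, against 46.7% at these levels) and 0 lower, with a median of 0.81 against a mean of 0.56 for the medians at these levels. Brca1, of homologous recombination, differed by 1.55 ± 0.16 (SE; limma, adjusted p = 0.0057), the helicase subunit Mcm2 by 1.30 ± 0.16 (0.0062) and the polymerase subunit Pola1 by 1.23 ± 0.22 (0.0132). The 10 probe sets of this list that were not called ran from -0.032 for Tyms to 0.64 for Rrm2. With quantile normalization 5 of the 27 were higher, beside 11.4% of all probe sets, and with the level trend removed 4, beside 7.05%. Without RBP array 1 or RBP array 2 fewer of the 27, and fewer of all probe sets, were called. The call of Pola1 was lost in each of these settings (limma, adjusted p from 0.0517 to 0.154).

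**Figure D5:**
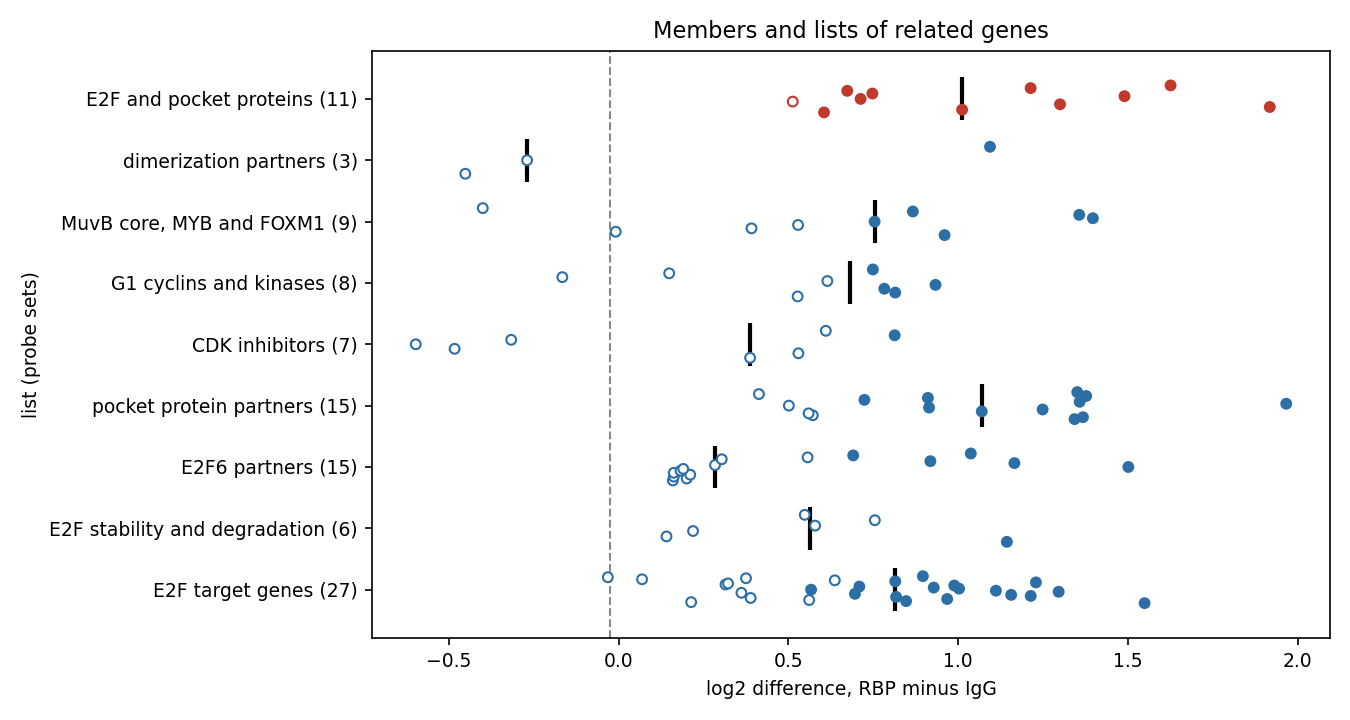
Log2 difference, RBP minus IgG, of each probe set of the E2F and pocket protein genes (red) and of 8 lists of related genes (blue), with filled points for probe sets called by limma, black bars for list medians and a dashed line for the median of all probe sets tested (-0.026). The members' median is 1.01, pocket protein partners have 1.07, and E2f1 and Rb1 turned below 0 with the level trend removed.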

How the data were processed

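Log2 levels per probe set were deposited by the authors, and the submitters' processing notes name RMA and affy. Versions and settings: not given in the sources used here. That values are log2 follows from RMA and from their range, 1.83 to 13.87. Columns differ in median and spread. The platform annotation gave 1 gene symbol to 21789 of 35556 probe sets, several to 1621 and none to 12146. Probe sets without a single symbol, among which control probe sets cannot be told apart, were left out of the test. Symbols were checked through 21698 Entrez identifiers in RefSeq (GRCm38.p6), and 0 changed. Groups were taken from sample titles.

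RBP minus IgG was tested in R 4.3.3 with limma 3.58.1 (lmFit, eBayes; 2 residual and 3.7 prior degrees of freedom), two-sided, with Benjamini-Hochberg adjustment over all 21789 probe sets at 0.05 and no filter on level. The median SE was 0.172. The code was tested on simulated data. Background level is the 95th percentile of 1256 chemosensory probe sets. Named from each list were up to 3 called genes with the largest absolute difference, besides all members, and the 3 genes nearest to the member with the largest difference. Tfdp1, Rbbp4, Cbx3, Cdkn1c, Cdkn2a, Cdkn2b, Tyms and Rrm2 were named after their values were seen. Members, lists and alternatives (scaling, loess trend with span 0.3, filters, variance, pairing and arrays left out) were chosen with earlier results of these data known.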

Additional observations from a re-analysis of the deposited data

How the results depend on the processing

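With 2 arrays a group, the number of arrays limits every call. Of the 11 member probe sets, limma called 5 higher with quantile normalization, 4 with the level trend removed, 6 with all 35556 rows of the table tested, and 5 to 10 with 1 array left out. Without variance moderation it called 0 (9 higher and 0 lower at an unadjusted p under 0.05). In no setting was a member called lower. Over all probe sets, higher and lower calls numbered 2475 and 725 with quantile normalization, 1537 and 1272 with the level trend removed, 1613 to 5522 and 94 to 3220 with 1 array left out, and 1 and 0 without moderation (4041 and 2346 unadjusted), against 5115 and 1446 as reported. Lower calls alone were 389 after centring on the chemosensory receptors and 2937 at a threshold of 0.1. With all 35556 rows tested, limma called 4122 of them higher (11.6%) and 1997 lower (5.62%). E2f1 (-0.055) and Rb1 (-0.013) reversed with the level trend removed. The cause of these changes between settings was not tested. Outside the setting without moderation, E2f3, E2f6, Rbl1 and Rbl2 gave 0.65 to 2.23 (limma, adjusted p from 3.15e-06 to 0.0563).

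The groups share replicate numbers, and same-numbered deviations from the group means correlated at 0.26 across probe sets, with no label that says a number marks a shared preparation. With the replicate number as a block, 11 members were higher, and 6379 probe sets were higher and 2452 lower.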
